A study of Homo sapiens with 3 samples.

Results

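The epithelial-mesenchymal transition (EMT) genes described here are CDH1, EPCAM, CDH2, VIM, FN1, SNAI1, SNAI2, TWIST1, ZEB1 and ZEB2. They were chosen by name: every non-control probe whose gene name in the array files was 1 of these 10 names was taken, which gave 17 of 58201 probes and 10 of 43317 gene names. The cells were HCT116, an established line of colorectal cancer cells that had received small interfering RNA (siRNA), and the groups were SMARCA4-KD1 and SMARCA4-KD2, cells in which SMARCA4 was knocked down, and NC, the scrambled negative control, with 1 array each. The labels give more than 1 siRNA against SMARCA4 and do not say which of them gave SMARCA4-KD1 and which SMARCA4-KD2. SMARCA4, also called BRG1, is the ATPase of the SWI/SNF chromatin remodelling complex. Total RNA was measured on Agilent SurePrint G3 Human arrays in 1 colour, Cy3. Each group was 1 transfection of 1 cell line on 1 array, so replicate spread could not be measured and 3 arrays in all set the precision.

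In an EMT, epithelial cells give up the junctions that hold them to their neighbours and gain the cytoskeleton and matrix of mesenchymal cells. E-cadherin (CDH1) and EPCAM mark the epithelial state, and N-cadherin (CDH2), vimentin (VIM) and fibronectin (FN1) mark the mesenchymal state. The zinc finger proteins SNAI1, SNAI2, ZEB1 and ZEB2 and the helix-loop-helix protein TWIST1 are transcription factors that drive the change, in part by repressing CDH1 through E-box sequences at its promoter. SMARCA4 is known as a partner of ZEB1 in repression of CDH1, which is the question these genes bring to the comparison of knockdown with NC.

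The probes that carry the results for VIM, TWIST1 and FN1 lie in coding sequence and are shown 5′ to 3′ as the array files give them. The VIM probe gave the largest difference among the members, the TWIST1 probe was the only TWIST1 probe of 4 with a signal well above background, and the FN1 probe is the only probe of that name.
VIM: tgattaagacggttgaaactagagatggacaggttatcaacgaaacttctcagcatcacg
TWIST1: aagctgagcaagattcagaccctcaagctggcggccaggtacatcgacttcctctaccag
FN1: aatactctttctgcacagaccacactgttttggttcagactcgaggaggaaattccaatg
By the files' hg19 positions, the VIM probe lies on the plus strand of chromosome 10 from 17278347 to 17279256, the TWIST1 probe on the minus strand of chromosome 7 from 19156462 to 19156521, and the FN1 probe on the minus strand of chromosome 2 from 216288217 to 216288895. The positions of the VIM and FN1 probes span 910 and 679 bases for a probe of 60 bases, so both cross a splice junction.

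The target of the knockdown was read before the members, since the sample records name SMARCA4 in the title and PRMT1 in the treatment field. The processed signal of SMARCA4 was 14026 in NC against 3960.2 with SMARCA4-KD1 and 4129 with SMARCA4-KD2, whereas that of PRMT1 was 7683 in NC against 9801 and 10147. Where 3 signals follow each other below, they are those of SMARCA4-KD1, SMARCA4-KD2 and NC in that order. The lowered gene was thus the one in the titles. The arrays had 26618 to 27535 probes with a signal well above background. Levels are log2 values minus the array's own 75th percentile, and a difference between 2 arrays had a median error of 0.20 on the log2 scale from the extraction software. SMARCA4-KD1 and SMARCA4-KD2 shared slide 1, while NC was on slide 2, so slide and knockdown cannot be told apart. Both comparisons also share the NC array. In RNA from a whole culture, fewer cells of a type and less RNA per cell cannot be told apart.

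Of the colon epithelium markers, 8 of 10 were well above background in each knockdown and 7 of 10 in NC, with a summed signal between 369815 and 398099. CDH17 and VIL1 were below background on every array. Of 7 fibroblast markers, COL1A1 alone was well above background, and COL1A2, COL3A1, DCN, LUM, PDGFRB and THY1 were not. Of the immune cell markers 3 of 4 on the array were above background, with summed signals of 200.4, 157.0 and 166.5, and CD3E was not. Of the endothelial markers 2 of 4 were, with summed signals of 81.0, 119.9 and 70.4, and both (CDH5 at 0.70 and VWF at 1.08) were at least 1.5-fold higher than NC in SMARCA4-KD2. PECAM1 and KDR were below background. The part of these markers in the results was not tested.

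Of the 17 member probes, 8 were well above background on all 3 arrays, 8 on none, and 1 in SMARCA4-KD1 alone. They gave values for 8 of the 10 genes, and ZEB2 and FN1 had no probe above background. VIM was the only member measured at 1.5-fold or more from NC, the threshold of the study's methods. It was lower in both knockdowns, so the count was 1 of 8 members beside 8.03% of all 22619 genes that were this much lower in both. Of all genes, 12.3% were this much lower with SMARCA4-KD1 and 9.74% with SMARCA4-KD2. No member was measured as at least 1.5-fold higher in either knockdown, although the CDH2 value in SMARCA4-KD1 is only a lower limit (at least 1.17-fold) and 1 member, CDH2, passes 1.5-fold there without the floor for dim values and in the series-level table. This stood beside 11.2% of all genes with SMARCA4-KD1, 10.1% with SMARCA4-KD2 and 6.35% with both.

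The epithelial adhesion genes had strong signals on every array. EPCAM, a cell surface adhesion molecule of epithelia, is read by a probe on chromosome 2 from 47613894 to 47613953 (hg19, plus strand). Its signal was 30570.2 in NC against 40025 with SMARCA4-KD1 and 37000.2 with SMARCA4-KD2. Both knockdowns were therefore higher than NC, by 0.30 and 0.24 on the log2 scale, each with an error of 0.20. With other ways of processing the arrays these differences went as low as 0.21 for SMARCA4-KD1 and 0.10 for SMARCA4-KD2, the latter below that error. The knockdowns themselves differed by 0.06, which is less than that error.

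CDH1, the cadherin of epithelial junctions, is read by a probe on chromosome 16 from 68869214 to 68869273 (hg19, plus strand) that is spotted 10 times on each array. Its signal was 3573 in NC against 3341 with SMARCA4-KD1 and 3125 with SMARCA4-KD2. The knockdowns were lower than NC, with log2 differences of -0.18 and -0.23, about the size of the extraction error of 0.20. The repeated spots were much tighter than that error. They ranged from 3306 to 3391 over the 8 spots used in SMARCA4-KD1, from 3078 to 3191 over 9 spots in SMARCA4-KD2, and from 3489 to 3678 over 10 spots in NC. Before scaling between arrays, no spot used on 1 array lay within the range of another array. The arrays' 75th percentiles were 236.8, 228.2 and 223.2, so these ranges do not compare scaled levels. After scaling, the knockdowns differed from each other by 0.04. Spots of 1 array share its RNA, labelling and scan. Their spread says how well the signal was read on each array and not how far another culture would differ.

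The mesenchymal markers were divided between 1 gene with a clear signal and 2 genes at or below background. VIM, the intermediate filament protein of mesenchymal cells, had a signal of 826.0 in NC against 315.6 with SMARCA4-KD1 and 283.8 with SMARCA4-KD2. Before background was subtracted the mean signals were 352, 317 and 863 over a local background of 27 to 30. NC was far above both knockdowns, and the knockdowns were close to each other. The log2 difference of VIM from NC was -1.47 for SMARCA4-KD1 and -1.57 for SMARCA4-KD2, each with an error of 0.20, or 2.78-fold and 2.98-fold lower. This left 36.0% and 33.6% of the NC level. The knockdowns differed from each other by 0.10. Over all genes, 133 had a lower mean difference than VIM, which is 0.588% of them.

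CDH2, the cadherin of neural and mesenchymal cells, has 2 probes. The probe on chromosome 18 from 25532081 to 25532140 (hg19, minus strand) had signals of 22.0, 3.35 and 3.80, and only the SMARCA4-KD1 value was well above background. The lowest signal well above background was between 16.4 and 17.7 on the 3 arrays, so SMARCA4-KD1 was at least 1.17-fold higher than NC and at least 1.29-fold higher than SMARCA4-KD2. SMARCA4-KD2 and NC were both below background and have no fold. The other CDH2 probe, with signals of 5.94, 12.4 and 12.9, was below background on all arrays, so the SMARCA4-KD1 value rests on 1 spot.

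FN1, the matrix protein fibronectin, had signals of 3.43, 3.28 and 3.66, not well above background on any array. The array annotates this probe by 1 transcript of the gene, and no other probe of that name was there. Which FN1 transcripts the probe reads was not tested. The depth of these arrays gives no comparison for FN1.

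Among the transcription factors, SNAI1 and SNAI2 stood farthest from NC, in opposite directions. The SNAI1 probe, on chromosome 20 from 48605170 to 48605229 (hg19, plus strand), had a signal of 2163 in NC against 3059 with SMARCA4-KD1 and 2673 with SMARCA4-KD2. Both knockdowns were higher than NC, by 0.41 and 0.27 on the log2 scale with an error of 0.20, and they differed from each other by 0.14. SNAI2, also called Slug, had signals of 40.9, 38.2 and 48.5, which are dim but well above background. Both knockdowns were lower than NC, with log2 differences of -0.33 and -0.38 and an error of 0.26. Neither gene reached 1.5-fold in either knockdown.

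TWIST1, with signals of 67.1, 56.8 and 60.4, was read by the probe printed above. SMARCA4-KD1 was higher than NC by 0.07 and SMARCA4-KD2 was 0.12 below it (log2 difference -0.12), and both values are smaller than their errors of 0.23 and 0.24. The 3 other TWIST1 probes were below background on all arrays, between 3.32 and 12.9. Of these, 2 belong to a predicted transcript and lie 115.7 kb from the others in the files' annotation.

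ZEB1 has 2 probes on chromosome 10 (hg19, plus strand), both well above background everywhere. The brighter, from 31818063 to 31818122, had signals of 392.7, 390.02 and 415.3, with log2 differences from NC of -0.17 and -0.12. The dimmer, from 31816261 to 31816320, had signals of 98.7, 105.5 and 99.0, with log2 differences of -0.09 and 0.06. All 4 differences were smaller than their errors of 0.20 to 0.22, and the probes disagree in sign for SMARCA4-KD2. ZEB2 has 3 probes, and their signals of 3.32 to 3.93 were below background on all arrays.

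The direction of the small differences depends on how the arrays are set against each other. After scaling to the 75th percentile, 8 spike-in controls stood below NC, with a mean log2 difference of -0.30 (SD 0.086) for SMARCA4-KD1 and -0.32 (SD 0.10) for SMARCA4-KD2. Scaling to these controls would raise every log2 difference by that much, and the median of all genes would move from -0.0038 to 0.30 and from 0.020 to 0.34. CDH1 would then be higher than NC by 0.12 and 0.09 and ZEB1 by 0.14 and 0.19, so neither gene has a direction that holds under both scalings, and the same is true of TWIST1 in SMARCA4-KD2. SNAI1 would stand at 0.72 and 0.59 and EPCAM at 0.61 and 0.56, while SNAI2 would stand at -0.03 and -0.06. VIM would stay lower than NC, at -1.17 and -1.26. Which scaling is closer to the RNA content of the cells was not tested.

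Ratios of 2 members within an array are free of this scaling. Relative to CDH1, VIM was lower than in NC, with log2 differences of -1.29 and -1.35, and relative to EPCAM they were -1.78 and -1.82. EPCAM relative to CDH1 was higher by 0.49 and 0.47, and SNAI1 relative to CDH1 by 0.60 and 0.50. ZEB1 relative to CDH1 differed by 0.02 and 0.10, and SNAI2 relative to CDH1 by -0.15 in both knockdowns. The members thus changed unequally, with VIM farthest from the epithelial genes. These ratios share the CDH1 or EPCAM signal of each array.

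Both knockdown arrays were also taken as a group of 2 against the single NC array with limma, which assumes that the NC array varies as the knockdown arrays do and leaves 1 residual degree of freedom. At an adjusted p of 0.05, 0 of 22619 genes were called in either direction (0% lower and 0% higher), while 7143 genes (31.6%) had an unadjusted p under 0.05. The limma difference of VIM was -1.52 (95% interval -1.88 to -1.17), with an unadjusted p of 0.000594 and a Benjamini-Hochberg adjusted p of 0.0675. This was the smallest adjusted p of the fit, shared by 946 genes. The adjusted p of VIM was lower with other settings of limma (0.00097 when each probe had to be well above background on every array, 0.0265 with quantile normalization, 0.0105 with normexp and 0.0162 with spike-in scaling) and higher without the intensity trend (0.124). A plain t-test of the same 2 knockdown arrays against NC did not call VIM after adjustment. The study counted genes for each knockdown separately, so the p of this pooled test cannot be set against the 0.01 of the methods. Both siRNAs gave a lower VIM level, and the fit is a test between these arrays, since no other cultures were measured.

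For the other members the limma difference did not pass. EPCAM stood at 0.27 (95% interval 0.03 to 0.51, limma adjusted p = 0.134) and SNAI1 at 0.34 (0.03 to 0.65, limma adjusted p = 0.138), and both had an unadjusted p under 0.05. CDH1 stood at -0.20 (-0.44 to 0.03), SNAI2 at -0.35 (-0.90 to 0.19), ZEB1 at -0.14 (-0.48 to 0.19) and TWIST1 at -0.03 (-0.61 to 0.55). The limma adjusted p-values of these 4 genes lay between 0.198 and 0.935. CDH2, with its floored values, stood at 0.04 (-0.76 to 0.85). The intervals of SNAI1, SNAI2, TWIST1 and CDH2 still hold differences of 1.5-fold. That of EPCAM does so without the intensity trend and with spike-in scaling. NC is a single array, so an interval that stops short of 1.5-fold does not exclude it.

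Over the 8 measured members the median log2 difference was -0.05 for SMARCA4-KD1 and -0.13 for SMARCA4-KD2, beside medians of -0.0038 and 0.020 over all genes. CDH2 enters these medians at the difference between the lowest levels well above background, and over the 7 members measured on all arrays they were -0.17 and -0.12. The knockdowns were compared with each other as well, since that difference does not use the NC array. Its median size was 0.08 over the members and 0.13 over all genes. No member was read as 1.5-fold apart between the knockdowns, beside 6.59% of all genes.

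The other genes of the EMT network were taken from written lists, in which 94 genes besides the members had a value. Of the genes in these and the marker lists that were at least 1.5-fold from NC in both knockdowns, 14 were lower and 8 higher. KRT20, from the marker lists, is among the 8 and not in the 94. Over all 22619 genes, 8.03% were this much lower in both and 6.35% higher. With spike-in scaling only 2 of the 14 lower genes kept that distance, CALD1 among them. That scaling raises every difference, so the 8 higher genes kept the distance by construction. Among 13 other EMT transcription factors, 8 had a value, 1 was at least 1.5-fold lower than NC in both knockdowns and 1 was higher. SOX4, a high mobility group factor, had signals of 1084, 1024 and 599.9, or 0.77 and 0.74. TWIST2, FOXC2, GSC, PRRX1 and TCF4 were below background, as ZEB2 was. The median of the list was 0.03 and 0.09.

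Of 14 epithelial transcription and splicing factors, 13 had a value, and again 1 was lower and 1 was higher in both knockdowns. ESRP2, a splicing regulator of epithelial isoforms, had signals of 4201, 4166 and 2273, with knockdowns above NC by 0.80 and 0.84. OVOL2, a zinc finger repressor that maintains the epithelial state, had signals of 95.6, 115.7 and 191.5, with log2 differences of -1.09 and -0.76. On these probes the 2 genes differed from NC in opposite directions. The OVOL2 values rest on 1 spot of a probe that is not annotated by a RefSeq transcript. Which OVOL2 transcripts it reads was not tested. With spike-in scaling OVOL2 stood at -0.78 and -0.44, so it was not 1.5-fold lower in both. The list's median was -0.07 and 0.05.

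All 12 partners of cadherins and EPCAM had a value. CTNNA1, the alpha-catenin that ties cadherins to actin, had signals of 6973, 6291 and 11363, or -0.79 and -0.89, and its other probe stood at -0.53 and -0.33. CLDN7, a claudin that associates with EPCAM, had signals of 11962, 10983 and 6536, or 0.79 and 0.72. Along with EPCAM itself it was higher in both knockdowns. The remaining 10 partners were not 1.5-fold from NC in the same direction in both, and the list's median was -0.03 and -0.10.

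Of 16 epithelial structure genes, all with a value, 2 were lower and 1 was higher in both knockdowns. MAL2, a protein of apical transport, had signals of 12406, 12300.0 and 20206, or -0.79 and -0.75, and its other probe stood at -0.43 and -0.37. CLDN4, a tight junction claudin, had signals of 51452, 49116 and 77020, or -0.67 and -0.68. Its other probe stood at the floor for dim values in SMARCA4-KD1 and NC, so it gave no second measured fold. CRB3, a polarity protein, had signals of 3008, 3201 and 1872, or 0.60 and 0.74. The keratins KRT8, KRT18 and KRT19, named here after their values were seen, lay between -0.06 and 0.13 in both knockdowns. KRT20, a keratin of mature colon epithelium from the marker list, was below background in NC, and the knockdowns were at least 2.15-fold and 2.81-fold higher. The list's median was -0.02 and -0.03.

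The mesenchymal structure and matrix genes held the most lower values. Of 23 genes, 15 had a value, and 4 were lower and 0 higher in both knockdowns, beside the 8.03% and 6.35% of all genes. CALD1, the actin-binding protein caldesmon, had signals of 2337, 3165 and 5784, or -1.39 and -0.90. S100A4, a calcium-binding protein of motile cells, had signals of 13817, 14890.4 and 22499, or -0.79 and -0.63. Of the other genes with a value, 1 was at least 1.5-fold higher with SMARCA4-KD1 and 2 with SMARCA4-KD2. The latter, named here after their values were seen, were ACTA2, the smooth muscle actin (0.51 and 0.86), and COL5A2, a fibrillar collagen (0.56 and 0.86), and the former was POSTN, above background in SMARCA4-KD1 alone. TGFBI, a matrix protein, was above background in NC alone, at 26.4, and NC was at least 1.66-fold and 1.65-fold higher than the knockdowns. The median of the list was -0.32 and -0.14, the second of which is the value of POSTN, dim in SMARCA4-KD2 and NC, and over the 13 genes measured on all arrays the medians were -0.32 and -0.08. SPARC, COL1A2, COL3A1, MMP2, TNC, THY1, PDGFRB and LOX were below background, as FN1 was. Spike-in scaling would add the shift given above to each of these differences, so the lower genes would lie nearer 0 and the higher genes farther above it. Of 7 fibronectin receptors, 4 had a value and none was 1.5-fold from NC in either knockdown.

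All 13 corepressors of SNAI and ZEB factors had a value. EHMT2, a histone H3 lysine methyltransferase, had signals of 428.7, 482.4 and 726.6, or -0.85 and -0.62. SUV39H1, another enzyme of that kind, had signals of 226.4, 188.8 and 322.9, or -0.60 and -0.81, and its other probe stood at -0.47 and -0.57. AJUBA, a LIM protein that binds SNAI factors, had signals of 2253, 2068 and 1315, or 0.69 and 0.62. The list's median was 0.03 and -0.04.

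Of 11 EMT inducers and their signalling genes, 9 had a value. Of these, 2 were lower and 1 higher in both knockdowns, beside 8.03% and 6.35% of all genes. In SMARCA4-KD1 2 were this much lower and 2 higher, and in SMARCA4-KD2 3 were lower and 1 higher. The median was -0.46 and -0.32, and the spike-in shift given above would bring it nearer 0. The ligand TGFB1, named here after its values were seen, was higher, at 0.81 and 0.45. SMAD7, the inhibitory SMAD of the TGF-beta pathway, had signals of 200.6, 142.1 and 303.5, or -0.68 and -1.13. MET, the receptor of hepatocyte growth factor, had signals of 25430.4, 23293 and 38279, or -0.68 and -0.75. With spike-in scaling neither SMAD7 nor MET was 1.5-fold lower in both knockdowns. SMAD2, a signal transducer of TGF-beta receptors, had signals of 365.7, 349.9 and 224.2 for its brightest probe, or 0.62 and 0.61, but another of its probes stood at -0.48 and -0.46, so its direction depends on the probe.

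Antisense and neighbouring transcripts were read beside the members. VIM-AS1, the antisense transcript of the VIM locus, has 2 probes. The probe on chromosome 10 from 17271694 to 17271753 (hg19, minus strand) had signals of 23.4, 37.6 and 55.5, or log2 differences of -1.33 and -0.60 with errors of 0.32 and 0.26. The other, from 17256419 to 17256478, had signals of 24.3, 30.9 and 59.8, or -1.38 and -0.99 with errors of 0.30 and 0.27. The antisense transcript was thus lower in both knockdowns, as VIM was. Its probes lie apart from the VIM probe and on the other strand. Its signals are dim, since the lowest signal well above background was between 16.4 and 17.7. On the first probe SMARCA4-KD1 minus SMARCA4-KD2 was -0.74, against 0.10 for VIM. With spike-in scaling that probe stood at -1.03 and -0.28, so it was not 1.5-fold lower in both. ZEB1-AS1, opposite ZEB1, had signals of 210.4, 255.03 and 179.4 on its brighter probe, or 0.14 and 0.48, while its dimmer probe was at least 1.26-fold lower than NC in SMARCA4-KD1 and stood at 0.24 in SMARCA4-KD2. SNAI3-AS1 carries the name of SNAI3, a gene of the companion lists and not a member. It had signals of 203.9, 184.9 and 107.3, or 0.84 and 0.75 on its brightest probe. Of its other probes, 1 differed in sign in SMARCA4-KD2. ZEB2-AS1 was below background, as ZEB2 was.

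The 250 bases before the VIM start are printed because VIM and VIM-AS1 were both lower. The sequence is that of RefSeq, build GRCh38.p14, chr10:17227991-17228240 on the plus strand, with the letters GGGCGG in capitals.
VIM promoter: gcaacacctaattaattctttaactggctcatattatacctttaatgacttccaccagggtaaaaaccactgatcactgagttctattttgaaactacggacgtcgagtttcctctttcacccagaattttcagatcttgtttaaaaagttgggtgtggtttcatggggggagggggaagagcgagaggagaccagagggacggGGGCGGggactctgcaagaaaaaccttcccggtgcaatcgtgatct
The RefSeq table held a promoter for 5 of the 10 members. Searched on both strands, GGGCGG, the letters of a GC box, stood once in this window and in 42.6% of 35116 promoters of the same length. CAGGTG, an E-box of the kind that SNAI and ZEB factors bind, was not in the VIM window and is in 17.5% of promoters, and TGANTCA, the letters of an AP-1 site, was not there either and is in 6.57%. Of 7 ZEB1 starts, 2 held CAGGTG. RefSeq gives VIM-AS1 starts 1744 and 1343 bases from the VIM start, on the opposite strand. These letters describe the windows, and no binding was measured here.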

How the data were processed

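The authors deposited scanner files of 3 Agilent arrays (HCT116 cells, 1 array per group), in which Feature Extraction 10.7.1.1 had given each spot an intensity corrected for background and spatial trend but not normalized between arrays. A deposited series-level table holds the same intensity within 0.1% for 57901 single-spot probes except 1, and served as an alternative. The deposited error of each intensity, from the software's error model, and the 0 or 1 flags for background, saturation and outliers were used as given. Control spots and outlier spots were left out, spots of a probe were averaged as log2, and the array's 75th percentile was subtracted. The lowest value well above background on an array served as a floor for dimmer values, and a fold against the floor is a limit. The filter asked for a value well above background on 1 array or more (29333 probes), and each of 22619 genes was read by its brightest probe. Positions are hg19, as in the files. The RefSeq table held the accession of 15 of the 17 member probes, with the same symbol.

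Differences between single arrays were read at 1.5-fold, with no test. limma 3.58.1 (R 4.3.3) compared both knockdowns with NC, using an intensity trend and adjusting over all genes by Benjamini-Hochberg. The p of 0.01 of the methods cannot be had for a single knockdown with 1 array per group. Python 3.11.15, numpy 2.4.6, pandas 2.3.3 and matplotlib 3.10.9 did the rest. The steps were tested on simulated data. Named genes are all members and, in each companion list, up to 6 genes at least 1.5-fold from NC, with both knockdowns on the same side. Some items that this rule takes in are not reported here. The members and lists were chosen with earlier results of these data known. Spike-in scaling and the series-level table without its differing probe were added after the data were seen.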

Additional observations from a re-analysis of the deposited data

How the results depend on the processing

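VIM was at least 1.5-fold lower in both knockdowns, and at least 2-fold lower, under every alternative run for the member counts, and its log2 difference ranged from -1.53 to -1.17 in SMARCA4-KD1 and from -1.62 to -1.26 in SMARCA4-KD2. With spike-in scaling 2 members (SNAI1 and EPCAM) were at least 1.5-fold higher in SMARCA4-KD1, 1 (SNAI1) in SMARCA4-KD2 and 1 in both. CDH2 decided the other changes. Without the floor it made 1 member higher in SMARCA4-KD1, and in the series-level table, whose differing probe lowers the floor, it made 1 member higher in SMARCA4-KD1 and 2 members lower in SMARCA4-KD2, VIM being the other. Leaving that probe out gave the counts of the report.

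The counts of all genes at least 1.5-fold lower and higher were 1357 and 1519 (SMARCA4-KD1), 1013 and 1238 (SMARCA4-KD2) and 859 and 902 (both) with normexp, in place of 2775, 2528, 2203, 2294, 1817 and 1436. With spike-in scaling they were 1152 and 5952, 803 and 6239, and 654 and 4341, and at 2-fold 823 and 772, 586 and 641, and 477 and 330. Spike-in scaling moved the median of the members to 0.25 and 0.18 and that of all genes to 0.30 and 0.34. Without a filter the median of other EMT transcription factors was -0.14 in SMARCA4-KD2, that of fibronectin receptors -0.15 in SMARCA4-KD1, and that of antisense and neighbouring transcripts -0.00304 and -0.0140.

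No gene was called by limma as reported or without the trend, nor after adjustment by the plain t-test of the same arrays. limma called 5176 genes when every array had to be well above background, 2432 with quantile normalization, 3709 with normexp and 6229 with spike-in scaling, and the VIM difference passed in each of these fits, at -1.52, -1.54, -1.33 and -1.21. EPCAM and SNAI1 passed with spike-in scaling alone (limma adjusted p = 0.0210 and 0.0219). The limma difference changed sign for CDH1 (0.11), ZEB1 (0.17) and TWIST1 (0.28) with spike-in scaling and for CDH2 (-0.025) with normexp. The cause of these changes was not tested.

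No paired analysis was possible because each group has 1 array, and for the same reason no array was left out. Slide was not fitted as a block, since the NC array lies alone on its slide. Signals near 17, the lowest well above background, limit FN1 and ZEB2, which have no value here, and CDH2, which has 1 only in SMARCA4-KD1.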
